A study of Homo sapiens with 16 samples.

Results

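Lysosome genes, set apart from the genes of autophagy, were followed through 2 colorectal cancer cell lines treated with itraconazole. The list held 39 genes, matched by symbol to the 54127 genes listed in each count file. A gene was used if it had at least 10 counts in all 4 libraries of at least 1 group, and all 39 were used. All but ARSB reached that level in each of the 4 groups, so 38 genes passed throughout, and ARSB fell below it with SW948 itraconazole alone. The list covers 4 membrane proteins, 7 proteases, 14 glycosidases and sulfatases, and 6 proteins of lipid breakdown. It also holds 6 genes for parts of the proton pump and the separate calcium channel MCOLN1, and 2 transcription factors.

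RNA sequencing was done on HT55 and SW948, established human colorectal cancer lines grown in adherent culture with serum. Each line received itraconazole at 5 µM or DMSO, the solvent, and was harvested for RNA at day 6. There were 4 libraries in each of the 4 groups, HT55 DMSO, HT55 itraconazole, SW948 DMSO and SW948 itraconazole, and the study's methods describe its experiments as biological quadruplicates. No genetic change separated treated from control cells, and each line is a single model of a tumour.

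The lysosome is the acid compartment in which a cell breaks down proteins, glycans, lipids and nucleic acids that reach it by endocytosis or autophagy. A proton pump, the V-ATPase, keeps it acid, heavily glycosylated membrane proteins line it, and soluble hydrolases do the digestion. Many of its genes carry an E-box-like element near the start site that is bound by TFEB, TFE3 and MITF, basic helix-loop-helix factors that move to the nucleus when nutrient signalling at the lysosome falls or the organelle is stressed. Itraconazole is an azole antifungal, and cationic or hydrophobic drugs of several kinds are known to gather in acid compartments and to disturb the passage of cholesterol through them. Lysosomal beta-galactosidase, the product of GLB1, also gives the staining that is used as a mark of senescent cells.

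Promoter stretches are shown for 7 members, the 5 that hold an 8-base palindrome of this element (TCACGTGA) and NEU1 and ARSB, which hold the core (CACGTG) and its 7-base form (TCACGTG) but not the palindrome. These 2 were picked after their values were seen, as the members with the core and no palindrome whose changes lay furthest apart in SW948. Sequences are from RefSeq on GRCh38.p14, written 5′ to 3′ on the strand of the gene, and capitals mark each CACGTG core. They run from 20 bases before the leading core to 20 bases after the last.
LAMP1: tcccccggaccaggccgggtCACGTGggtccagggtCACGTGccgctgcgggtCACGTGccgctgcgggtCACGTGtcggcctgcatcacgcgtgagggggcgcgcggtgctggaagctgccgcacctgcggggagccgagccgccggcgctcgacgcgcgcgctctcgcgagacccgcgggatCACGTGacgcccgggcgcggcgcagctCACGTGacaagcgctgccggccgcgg
CTSA: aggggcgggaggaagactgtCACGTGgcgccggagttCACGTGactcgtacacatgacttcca
GAA: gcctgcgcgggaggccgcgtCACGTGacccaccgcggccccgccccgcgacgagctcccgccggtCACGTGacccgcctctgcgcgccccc
ATP6V0D1: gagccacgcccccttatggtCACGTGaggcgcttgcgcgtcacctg
MCOLN1: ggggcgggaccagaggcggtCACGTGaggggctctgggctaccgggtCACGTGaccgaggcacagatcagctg
NEU1: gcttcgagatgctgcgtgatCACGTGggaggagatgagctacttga
ARSB: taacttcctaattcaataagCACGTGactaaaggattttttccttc

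On GRCh38.p14 the LAMP1 stretch lies at chr13:113297027-113297263 (plus strand), the CTSA stretch at chr20:45891273-45891335 (plus strand) and the GAA stretch at chr17:80101485-80101575 (plus strand). The ATP6V0D1 stretch lies at chr16:67481191-67481236 (minus strand), the MCOLN1 stretch at chr19:7522563-7522635 (plus strand), the NEU1 stretch at chr6:31862922-31862967 (minus strand) and the ARSB stretch at chr5:78986093-78986138 (minus strand). A window of 300 bases, from 250 before to 50 after the start site, was found for 27 of the 39 members. Both strands were searched, and TCACGTGA contains CACGTG, so a window with the longer motif is counted under both. CACGTG stood in the windows of 9 of the 27 members (33.3%) and in 8.77% of all 27305 genes with a window, a gene being counted if any of its windows held the motif. TCACGTG, in either orientation, stood in 8 of the 27 (29.6%) against 4.49% of all genes. TCACGTGA stood in 5 of the 27 (18.5%) against 1.18% of all genes. The LAMP1 window held 6 cores, of which 2 were the full palindrome, while GAA and MCOLN1 each held 2 palindromes. The 27305 genes include some not expressed in these lines, and a match is a description of letters, not of binding.

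The libraries held 8269406 to 11110814 gene counts each. TMM is a scaling that takes most genes to be unchanged. Fitted within each line, it gave every control library a larger factor (1.056 to 1.137) than any treated library (0.8463 to 1.001). Moving from TMM to plain library totals therefore shifted the median log2 fold change of all genes by -0.165 in HT55 and -0.329 in SW948. For that reason counts of calls are given on both scalings, and levels are given as counts per 1000000 (CPM) on TMM-scaled library sizes unless plain totals are named. The levels used factors fitted on all 16 libraries together, 1.021 to 1.181 in controls and 0.8679 to 0.97 in treated libraries. Each CPM is a share of a library's RNA, and fewer cells that express a gene cannot be told apart from less of its RNA per cell. All 9 markers of colon epithelium had at least 10 counts in every library. Of 8 markers of blood, vessel and stromal cells 7 were found in the files. Their summed CPM was 0.757 to 1.34 in HT55 DMSO, 1.14 to 1.77 in HT55 itraconazole, 2.31 to 4.54 in SW948 DMSO and 9.60 to 12.0 in SW948 itraconazole. Only COL1A1 reached 10 counts in all libraries of a group, in SW948, while PTPRC, a marker of blood cells, had 1 count in all 16 libraries together. The part of such cells in the results was not tested. Treated HT55 replicate 3 stood furthest from its group and was the lowest of the 4 for 20 of the 39 members and the highest for 9, LAMP1, CTSA and ATP6V0D1 among them. Without it 28 members passed the test in HT55, with GLA gained (adjusted p = 0.0213) and ATP6V0D1 lost (0.0531). The SW948 groups were uneven too. Treated SW948 replicate 1 was the lowest of its group for 22 members. In SW948 DMSO replicate 2 was the lowest for 21 and replicate 3 the highest for 22.

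Per length of transcript, CD63 and PSAP were among the 3 highest members in every group, and CTSZ was the highest in HT55 and the fifth in SW948. In both SW948 groups the lead of CTSZ over the next member was within their SDs. RPKM here is the read count per kilobase of the canonical transcript and per 1000000 of the TMM-scaled library size. It was highest in HT55 DMSO for CTSZ, a cysteine carboxypeptidase (633 ± 26.8, SD, n = 4). Next came CD63, a tetraspanin of late endosomes (220.2 ± 6.375), PSAP, the precursor of the saposins that present lipids to hydrolases (196.5 ± 3.13), and LAMP1 (111 ± 3.41). In SW948 DMSO the order began with CD63 (388 ± 23.6), PSAP (228 ± 7.11) and CTSB (129 ± 7.81). These leading levels were separated by more than their SDs within each control group. Under itraconazole PSAP reached an RPKM of 481 ± 88.55 in HT55 and led in SW948 at 601.5 ± 42.9, where CD63 stood next at 545 ± 53.6, a gap close to their SDs. ARSB had the lowest mean in every group, from an RPKM of 1.47 ± 0.207 in HT55 DMSO to 0.2395 ± 0.0698 with SW948 itraconazole, and in HT55 it lay within the SD of MCOLN1, the next above it. Levels per length are uncertain for CTSD and IDS, since 62.1% and 90.7% of their exon bases also lie in another annotated gene, where the authors' counting may have set reads aside.

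**Figure D1:**
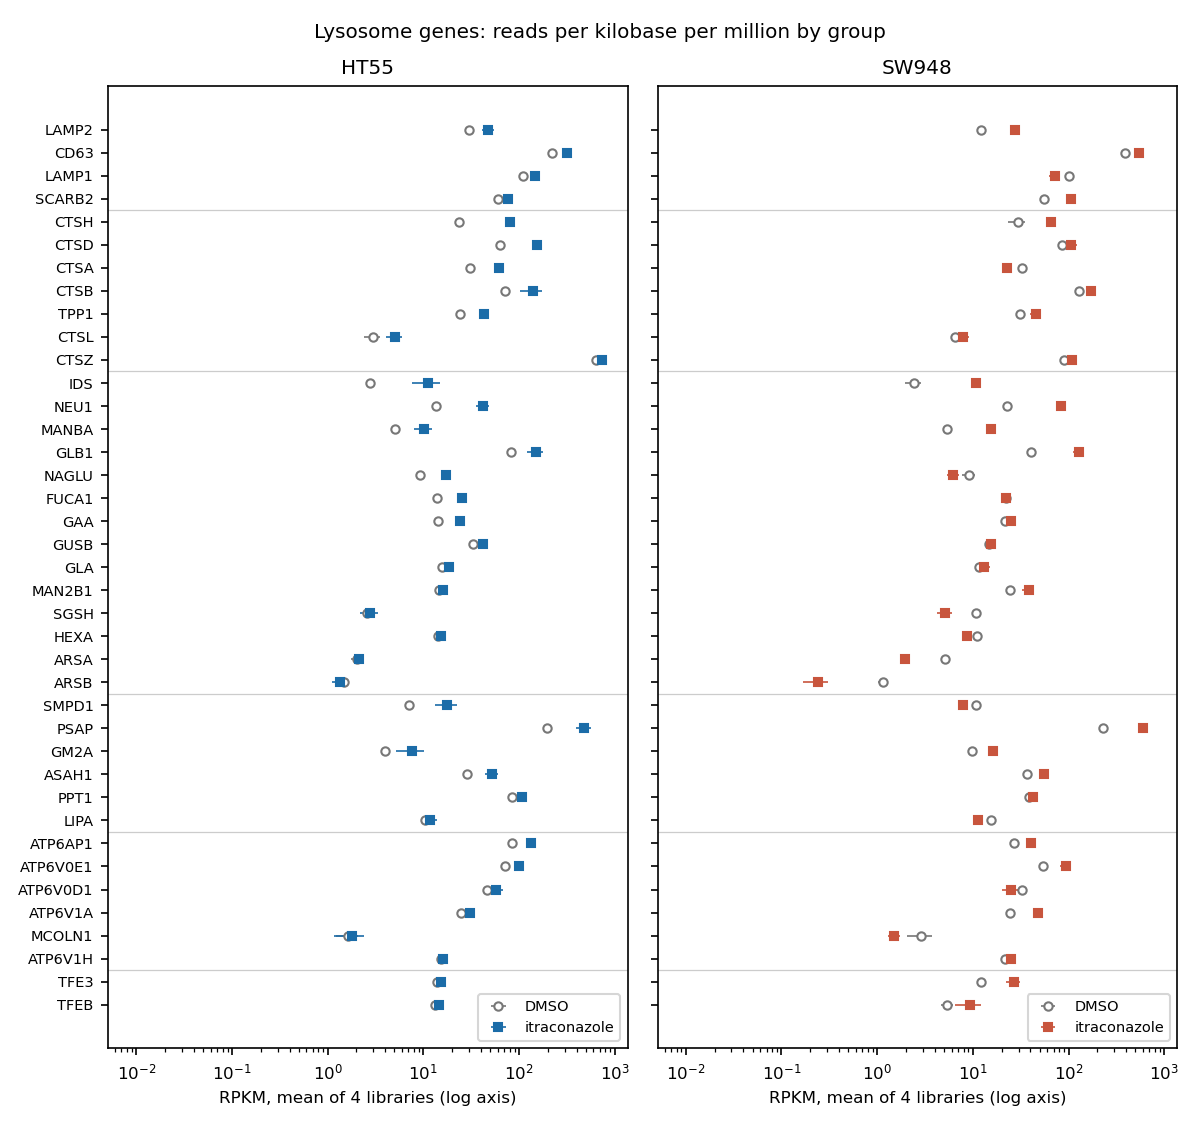
RPKM of the 39 lysosome genes on a log axis, as the mean of 4 libraries with SD, in HT55 (left) and SW948 (right). Open circles are DMSO and filled squares are itraconazole. Genes are grouped by role with lines between groups. CTSZ tops HT55 DMSO at 633, and ARSB is at the bottom of every group.

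The summed level of the 39 genes was higher under itraconazole in both lines. In HT55 it went from 4622.5 ± 47.3 CPM (SD, n = 4) in DMSO to 7466.0 ± 643.1 in itraconazole, and from 4737.0 ± 42.2 to 6783.8 ± 295.7 on plain totals. The SW948 sum was 3966.5 ± 91.5 CPM in DMSO and 6585.2 ± 485.3 in itraconazole, or 4659.0 ± 111.5 and 5998.0 ± 162.6 on plain totals. PSAP was 1 of the 2 members with the most CPM in every group, beside CTSZ in HT55 and CTSB in SW948, so the sum says little of the less abundant members.

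In HT55, 28 of the 39 members rose with itraconazole and 0 fell, by edgeR's quasi-likelihood test with a Benjamini-Hochberg adjusted p under 0.05 over all genes tested. That is 71.8% of the members higher, beside 27.5% of all 12133 genes tested that were called higher and 26.5% that were called lower. Their median log2 fold change was 0.52, beside -0.015 over all genes. On plain totals 25 members rose and 0 fell, beside 18.8% of all genes called higher and 38.8% called lower, and CTSZ, ATP6V0D1 and ATP6V1A were the members that lost their call. The 11 members not called on TMM were GLA, HEXA, ARSA, ARSB, MAN2B1, SGSH, LIPA, ATP6V1H, MCOLN1, TFEB and TFE3.

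In SW948 the list divided. With TMM 22 of the 39 members rose (56.4%) and 11 fell (28.2%), beside 38.9% of all 12505 genes tested called higher and 41.3% called lower. The members' median log2 fold change was 0.26 and that of all genes -0.025. On plain totals 17 members rose and 16 fell, beside 25.2% of all genes called higher and 54.6% lower, and the median of the members was -0.08 beside -0.354 over all genes. The 17 that rose on both scalings were LAMP2, SCARB2, CTSH, TPP1, GLB1, NEU1, MANBA, MAN2B1, IDS, ASAH1, PSAP, GM2A, ATP6V0E1, ATP6V1A, ATP6AP1, TFEB and TFE3. The 11 that fell on both were LAMP1, CTSA, HEXA, NAGLU, ARSA, ARSB, SGSH, SMPD1, LIPA, ATP6V0D1 and MCOLN1.

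Across the lines, 19 members rose in both with TMM and 13 on plain totals, while 19.9% and 11.7% of the 11448 genes tested in both lines did so. Another 5 members rose in HT55 and fell in SW948, namely LAMP1, CTSA, NAGLU, SMPD1 and ATP6V0D1, beside 4.05% of all genes. On plain totals that pattern was held by 8 members (LAMP1, CTSA, GAA, NAGLU, GUSB, FUCA1, SMPD1 and PPT1), beside 3.76% of all genes. No member fell in both lines, whereas 19.5% of all genes did so on TMM and 31.0% on plain totals.

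**Figure D2:**
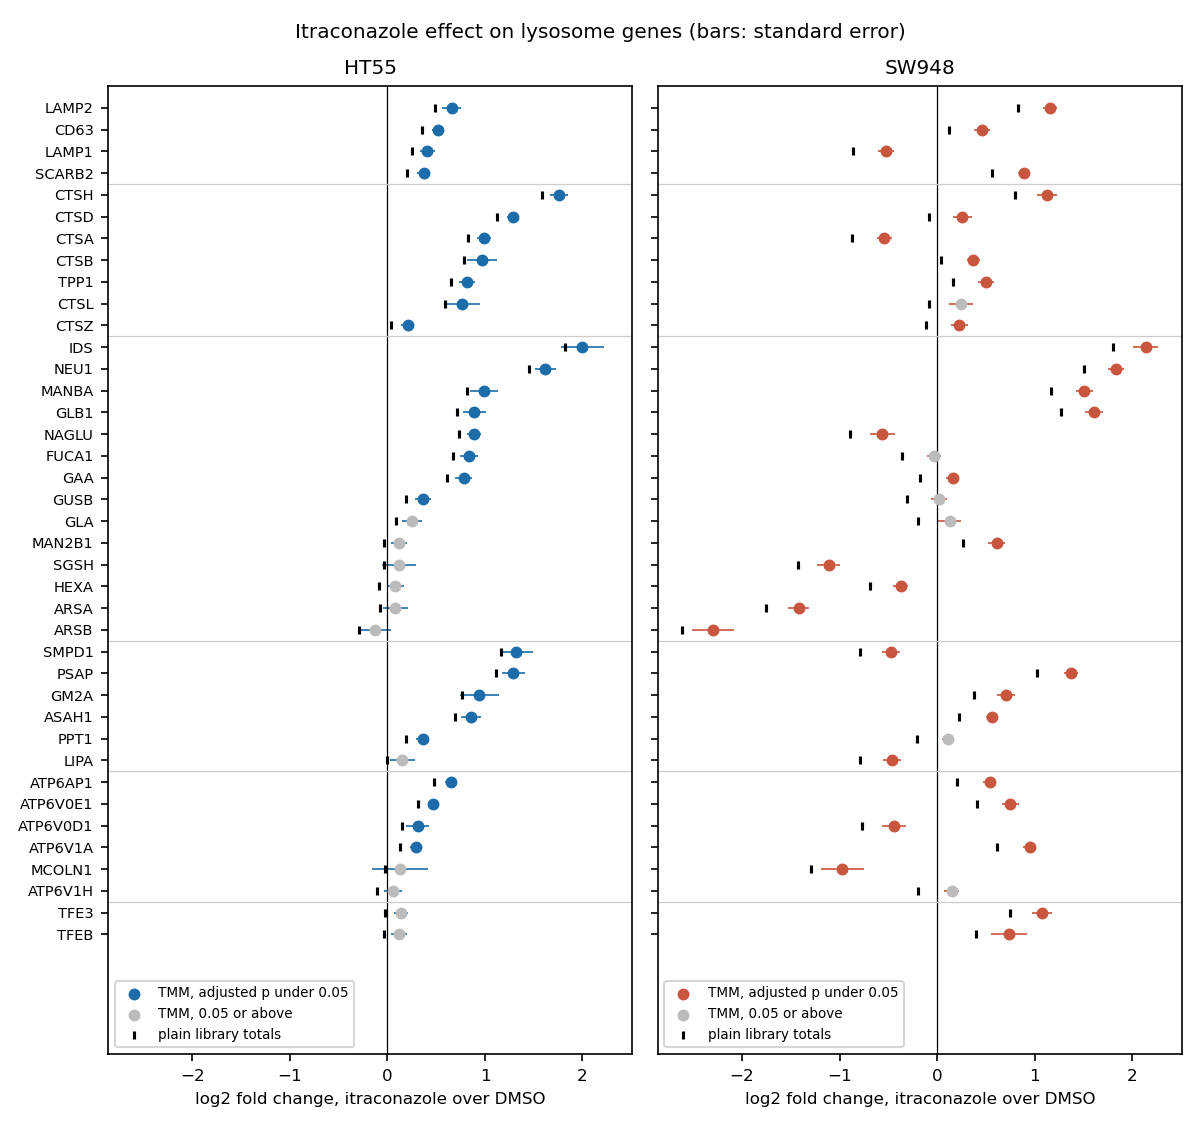
Log2 fold change of itraconazole over DMSO for the 39 members in HT55 (left) and SW948 (right), with its standard error, 4 libraries a group. Coloured points passed the adjusted p threshold of 0.05 on TMM, grey points did not, and black ticks give the value on plain library totals. Called points in HT55 all lie to the right of 0, and 11 called points in SW948 lie to the left.

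All 4 membrane proteins rose in HT55 on TMM, and 3 of the 4 rose in SW948, beside 27.5% and 38.9% of all genes. LAMP1, an abundant glycoprotein of the lysosomal membrane (GRCh37 chr13:113951554-113977987, plus strand), moved in opposite directions in the lines. Its CPM in HT55 was 309, 293, 306 and 291 in the 4 DMSO libraries and 369, 367, 438 and 425 in the 4 itraconazole libraries. In SW948 the values were 258, 271, 286 and 269.8 in DMSO and 172, 201, 223 and 177 in itraconazole. Every treated HT55 library was above its controls and every treated SW948 library was below. Its fitted change (log2) was 0.41 ± 0.0745 (SE, edgeR adjusted p = 0.00108) in HT55 and -0.52 ± 0.0813 (SE, edgeR adjusted p = 4.03e-05) in SW948, and on plain totals 0.25 and -0.86.

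LAMP2, whose splice forms serve membrane integrity and chaperone-mediated autophagy, rose by 0.66 in HT55 and 1.16 in SW948 on the log2 scale. SCARB2, an integral protein of the lysosomal membrane, rose by 0.37 and 0.89. Both also rose on plain totals in each line, LAMP2 by 0.49 and 0.83 and SCARB2 by 0.20 and 0.56. CD63 rose by 0.52 and 0.46, but in SW948 its value on plain totals was 0.12 and did not pass the test (edgeR adjusted p = 0.0885).

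Among the 7 proteases all rose in HT55 on TMM, with a median log2 fold change of 0.97, beside 27.5% of all genes. In SW948 5 rose and CTSA fell, with a median of 0.26, beside 38.9% of all genes called higher and 41.3% lower. CTSH, a cysteine aminopeptidase (GRCh37 chr15:79213400-79241916, minus strand), had the largest rise among proteases in both lines. Its HT55 libraries gave 52.7, 55.5, 46.9 and 49.2 CPM in DMSO and 167, 198, 151 and 178 in itraconazole. The SW948 libraries gave 59.1, 56.8, 81.8 and 54.8 in DMSO and 135, 139, 142 and 149.7 in itraconazole. The groups did not overlap in either line, although SW948 DMSO replicate 3 lay well above the other controls. Itraconazole over DMSO gave log2 values of 1.76 ± 0.092 (SE, edgeR adjusted p = 1.77e-06) in HT55 and 1.13 ± 0.105 (SE, edgeR adjusted p = 2.3e-07) in SW948, and 1.59 and 0.80 on plain totals.

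CTSD, the main aspartic protease of the lysosome (GRCh37 chr11:1773982-1785803, minus strand), was at 132, 123, 130.5 and 130.1 CPM in HT55 DMSO and 297, 333, 300.3 and 333 in HT55 itraconazole. In SW948 its CPM was 174, 159, 192 and 178.5 in DMSO and 186, 223, 260.4 and 193.5 in itraconazole. HT55 groups were far apart, whereas those of SW948 overlapped. In HT55 the log2 fold change was 1.29 ± 0.064 (SE, edgeR adjusted p = 1.77e-06). The SW948 value, 0.26 ± 0.0986 (SE, edgeR adjusted p = 0.0249), was -0.08 on plain totals, and it lost its call without DMSO replicate 1 (adjusted p = 0.0566), DMSO replicate 2 (0.0878) or itraconazole replicate 3 (0.0707).

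CTSA, a carboxypeptidase that also holds NEU1 and GLB1 in a protective complex (GRCh37 chr20:44518783-44527588, plus strand), was among the members with the widest difference between lines. Its CPM in HT55 was 57.7, 55.4, 61.9 and 55.2 in DMSO and 102, 117.5, 124 and 115 in itraconazole. For SW948 the CPM values were 59.65, 60.8, 64.02 and 57.2 in DMSO and 44.5, 43.2, 45.4 and 36.6 in itraconazole. All 4 treated HT55 libraries were above their controls, and all 4 treated SW948 libraries were below their controls. The log2 fold change was 0.99 ± 0.0756 (SE, edgeR adjusted p = 7.77e-06) in HT55 and -0.54 ± 0.0789 (SE, edgeR adjusted p = 2.02e-05) in SW948. Some 10.8% of its exon bases also lie in PLTP on the other strand, and the strand setting of the counting is not stated.

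Of the other proteases, CTSB, an abundant cysteine protease, rose by 0.97 in HT55 and 0.37 in SW948, where plain totals gave 0.04 (edgeR adjusted p = 0.547). TPP1, a tripeptidyl peptidase, rose by 0.82 and 0.50 and held on plain totals at 0.65 and 0.16. CTSL, another cysteine protease, rose by 0.76 in HT55 and was at 0.25 in SW948 (edgeR adjusted p = 0.0832), a value that passed without itraconazole replicate 1 (0.0469) or 3 (0.0321). CTSZ was called higher at 0.21 in HT55 and 0.23 in SW948, and plain totals gave 0.04 and -0.11 with no call. The CTSZ call was lost without HT55 DMSO replicate 1, 2 or 4 (adjusted p from 0.0523 to 0.0571), and in SW948 without any of the 4 DMSO replicates or itraconazole replicates 2 and 3 (0.0505 to 0.0943).

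On TMM the 14 glycosidases and sulfatases gave 8 rises and 0 falls in HT55, and 6 rises and 5 falls in SW948. Over all genes 27.5% were called higher and 26.5% lower in HT55, and 38.9% and 41.3% in SW948. On plain totals GAA, GUSB and FUCA1 were called lower in SW948. The steepest changes of the whole list were among these 14 genes. IDS, iduronate 2-sulfatase, which acts on dermatan and heparan sulfate (GRCh37 chrX:148558519-148602635, minus strand), was at 21.1, 21.8, 21.5 and 20.4 CPM in HT55 DMSO and 94.1, 111, 46.96 and 88.25 in HT55 itraconazole. The SW948 values were 18.7, 20.6, 13.3 and 20.2 and 68.4, 92.01, 85.4 and 82.2. Treated libraries were above the controls throughout, with HT55 itraconazole replicate 3 the lowest of its group. On the log2 scale the change was 2.0 ± 0.218 (SE, edgeR adjusted p = 5.32e-05) in HT55 and 2.14 ± 0.128 (SE, edgeR adjusted p = 3.01e-09) in SW948, and both held on plain totals (1.82 and 1.80). IDS has a pseudogene copy close by, so its counts are uncertain.

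NEU1, the lysosomal sialidase (GRCh37 chr6:31825436-31830682, minus strand), was at 48.9, 42.4, 48.2 and 42.9 CPM in HT55 DMSO and 133, 161.5, 114 and 155 in itraconazole. SW948 libraries had 77.8, 68.5, 83.5 and 75.7 in DMSO and 247, 287, 311 and 275 in itraconazole. Treated libraries stood far above the controls in both lines. Its fitted change (log2) was 1.62 ± 0.11 (SE, edgeR adjusted p = 4.33e-06) in HT55 and 1.84 ± 0.0825 (SE, edgeR adjusted p = 2.24e-10) in SW948. Plain totals left it at 1.45 and 1.51.

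GLB1, beta-galactosidase (GRCh37 chr3:33038101-33138694, minus strand), gave 209.5, 203, 206 and 206 CPM in HT55 DMSO and 386.5, 475, 298 and 369 in HT55 itraconazole. In SW948 it gave 102, 105, 107 and 100 in DMSO and 269.5, 349.5, 370.5 and 303 in itraconazole. Control libraries lay within a few CPM of each other and all treated libraries lay above them. The log2 fold change was 0.89 ± 0.116 (SE, edgeR adjusted p = 0.000156) in HT55 and 1.61 ± 0.0908 (SE, edgeR adjusted p = 1.71e-09) in SW948, and 0.71 and 1.27 on plain totals. The SW948 controls began at 103 ± 3.03 CPM (SD, n = 4) against 206 ± 2.73 in HT55, and the treated groups stood at 323 ± 45.5 and 382 ± 72.6.

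MANBA, beta-mannosidase (GRCh37 chr4:103551927-103682151, minus strand), was at 20.2, 19.95, 22.2 and 19.55 CPM in HT55 DMSO and 39.6, 52.0, 30.7 and 41.3 in itraconazole. SW948 gave 21.65, 21.55, 19.95 and 22.02 in DMSO and 52.8, 66.4, 66.5 and 62.3 in itraconazole. The lines began at like levels, and the treated SW948 libraries all passed the highest treated HT55 library. As a log2 ratio of treated to control it was 0.99 ± 0.142 (SE, edgeR adjusted p = 0.000263) in HT55 and 1.51 ± 0.0886 (SE, edgeR adjusted p = 2.56e-09) in SW948.

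The other 3 sulfatases fell in SW948. ARSB, arylsulfatase B, which acts on dermatan and chondroitin sulfate (GRCh37 chr5:78073032-78281910, minus strand), had the steepest fall of the list. Its CPM was 4.65, 5.77, 6.16 and 5.93 in SW948 DMSO and 1.001, 1.42, 0.763 and 1.47 in itraconazole, where the libraries held only 10, 11, 6 and 13 counts. HT55 gave 7.36, 6.48, 8.48 and 6.28 in DMSO and 5.81, 5.66, 6.46 and 8.32 in itraconazole, and these groups overlapped. On the log2 scale the change was -2.3 ± 0.216 (SE, edgeR adjusted p = 2.58e-07) in SW948, and in HT55 it was -0.13 ± 0.168 (SE, edgeR adjusted p = 0.529). ARSA, arylsulfatase A, which acts on sulfatide, was at -1.42 ± 0.111 (SE, edgeR adjusted p = 4.04e-08) in SW948 and 0.08 in HT55 (adjusted p = 0.611). SGSH, the heparan N-sulfatase, was at -1.11 ± 0.119 (SE, edgeR adjusted p = 9.68e-07) in SW948 and 0.12 in HT55 (adjusted p = 0.584). All 3 also fell on plain totals in SW948, with log2 fold changes of -1.75 for ARSA, -2.62 for ARSB and -1.43 for SGSH. SUMF1, no member but the enzyme that activates all sulfatases, was at 26.8, 28.9, 29.5 and 26.9 CPM in SW948 DMSO and at 2.80, 2.58, 1.40 and 2.94 in itraconazole. Its log2 fold change was -3.54 ± 0.15 (SE, edgeR adjusted p = 1.46e-10) in SW948 and -0.26 ± 0.135 (adjusted p = 0.132) in HT55.

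In the rest of this group, NAGLU, the N-acetylglucosaminidase of heparan sulfate breakdown, rose by 0.89 in HT55 and was called lower in SW948, at -0.56. HEXA, the alpha chain of beta-hexosaminidase, was at 0.08 in HT55 with no call and at -0.37 in SW948, called lower. GAA, acid alpha-glucosidase, rose by 0.78 in HT55. In SW948 its call depended on the scaling, at 0.16 on TMM (edgeR adjusted p = 0.0294) and -0.17 on plain totals (adjusted p = 0.0495), and the TMM call was lost without DMSO replicate 1 (0.0664), 2 (0.0835) or 4 (0.053). FUCA1, alpha-fucosidase, rose by 0.84 in HT55 and was at -0.03 in SW948, with a call of lower only on plain totals (-0.36).

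GUSB, beta-glucuronidase, which has pseudogene copies and so uncertain counts, rose by 0.36 in HT55 and was at 0.02 in SW948, or -0.31 and called lower on plain totals. MAN2B1, alpha-mannosidase, was at 0.12 in HT55 with no call and rose by 0.61 in SW948 (0.27 on plain totals). Without HT55 itraconazole replicate 2 the HT55 value of MAN2B1 was 0.19 and passed (adjusted p = 0.0391). GLA, alpha-galactosidase A, was at 0.25 and 0.13 and passed in neither line (adjusted p = 0.0534 and 0.333), though the HT55 value passed without DMSO replicate 4 (0.0497), itraconazole replicate 1 (0.0451) or itraconazole replicate 3 (0.0213).

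**Figure D3:**
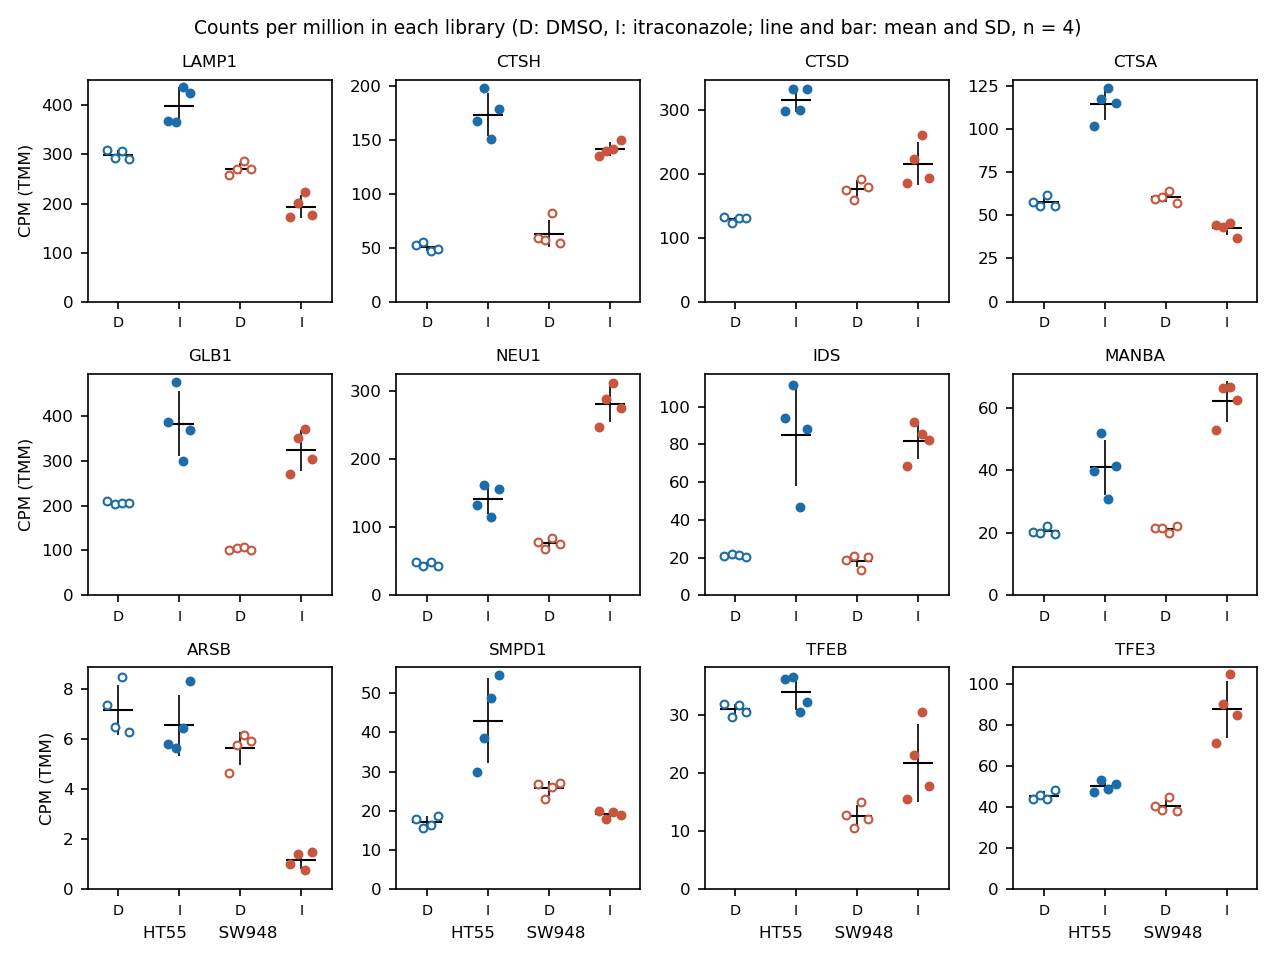
CPM on TMM-scaled library sizes in each of the 16 libraries for 12 named members, each panel starting at 0. Open points are DMSO (D), filled points itraconazole (I), blue HT55 and red SW948, with the group mean and SD (n = 4). GLB1, NEU1, IDS and MANBA are higher in all treated libraries of both lines, LAMP1, CTSA and SMPD1 go in opposite directions, and TFEB, TFE3 and ARSB separate by treatment in SW948 and overlap in HT55.

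Of the 6 proteins of lipid breakdown 5 rose in HT55 on TMM, beside 27.5% of all genes. In SW948 3 rose and 2 fell, beside 38.9% and 41.3% of all genes. SMPD1, acid sphingomyelinase (GRCh37 chr11:6411670-6416228, plus strand), divided the lines. HT55 had 17.96, 15.6, 16.3 and 18.7 CPM in DMSO and 30.01, 38.7, 48.8 and 54.6 in itraconazole. SW948 had 26.9, 22.9, 25.9 and 27.1 in DMSO and 19.8, 17.9, 19.6 and 18.85 in itraconazole. No group overlapped its control, with treated HT55 above and treated SW948 below. The log2 fold change was 1.32 ± 0.17 (SE, edgeR adjusted p = 0.000139) in HT55 and -0.47 ± 0.0896 (SE, edgeR adjusted p = 0.00026) in SW948, and 1.16 and -0.79 on plain totals.

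PSAP rose from 539.9 ± 8.598 to 1322 ± 243 CPM (SD, n = 4) in HT55 and from 626 ± 19.5 to 1653 ± 118 in SW948, log2 fold changes of 1.29 and 1.37. GM2A, the activator that lifts GM2 ganglioside from the membrane, rose by 0.94 and 0.71, and ASAH1, acid ceramidase, by 0.86 and 0.56. All 3 passed on plain totals in both lines, with values from 0.23 for ASAH1 in SW948 to 1.11 for PSAP in HT55. LIPA, the acid lipase that frees cholesterol from its esters, was at 0.15 in HT55 (edgeR adjusted p = 0.33) and -0.46 ± 0.0889 (SE, edgeR adjusted p = 0.000254) in SW948. PPT1, which removes palmitate from proteins, rose by 0.36 in HT55 and was at 0.11 in SW948, or -0.21 and called lower on plain totals. The SW948 value of PPT1 on TMM passed as higher without itraconazole replicate 1 (0.14, adjusted p = 0.0459).

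In the proton pump, ATP6AP1, an accessory subunit, rose by 0.65 in HT55 and 0.54 in SW948, and ATP6V0E1, a small membrane subunit, by 0.47 and 0.75. ATP6V1A, the catalytic subunit, rose by 0.95 in SW948 and by 0.29 in HT55, where plain totals gave 0.13 without a call. ATP6V0D1, which joins the membrane part to the stalk, was at 77.45, 77.3, 74.7 and 74.65 CPM in HT55 DMSO and 81.85, 76.5, 116 and 102 in itraconazole, with overlap. Its HT55 log2 fold change, 0.31 ± 0.119 (SE, edgeR adjusted p = 0.049), was close to the threshold and was lost without any of the 4 DMSO replicates or itraconazole replicates 3 and 4 (adjusted p from 0.0531 to 0.123). In SW948 it was -0.44 ± 0.12 (SE, edgeR adjusted p = 0.00415), with overlapping groups. ATP6V1H, a regulatory subunit, was at 0.06 and 0.15 with no call in either line, though in SW948 it passed as higher without itraconazole replicate 1 (0.21, adjusted p = 0.0148) and as lower on plain totals (-0.19).

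MCOLN1, the calcium channel TRPML1 of the lysosomal membrane, was 1 of the 3 members with the fewest counts in every group. HT55 gave 2.27, 4.01, 3.18 and 4.27 CPM in DMSO and 3.44, 2.12, 5.23 and 4.096 in itraconazole, with full overlap, while SW948 gave 5.85, 4.73, 8.67 and 4.93 and 3.302, 2.45, 3.43 and 3.39, with treated libraries below all controls. Itraconazole over DMSO gave log2 values of 0.13 ± 0.286 (SE, edgeR adjusted p = 0.719) in HT55 and -0.97 ± 0.219 (SE, edgeR adjusted p = 0.00102) in SW948. The 5 pump members and 20 further genes of the pump made a list of 25, of which 20 were tested. In HT55 11 of them rose (55.0%) and 1 fell (5.0%), where 27.5% and 26.5% of all genes were called. In SW948 10 rose (50.0%) and 6 fell (30.0%), where 38.9% and 41.3% of all genes were called. On plain totals the numbers were 6 (30.0%) and 3 (15.0%) in HT55, beside 18.8% and 38.8% of all genes, and 7 (35.0%) and 10 (50.0%) in SW948, beside 25.2% and 54.6%.

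The transcripts of both transcription factors rose in SW948 and neither passed in HT55. TFEB (GRCh37 chr6:41651716-41703997, minus strand) was at 31.8, 29.7, 31.7 and 30.6 CPM in HT55 DMSO and 36.2, 36.55, 30.4 and 32.3 in itraconazole, with overlap. In SW948 it was at 12.8, 10.6, 14.9 and 12.1 in DMSO and 15.5, 23.1, 30.5 and 17.7 in itraconazole, where the lowest treated library was just above the highest control. As a log2 ratio of treated to control it was 0.12 ± 0.0831 (SE, edgeR adjusted p = 0.229) in HT55 and 0.74 ± 0.184 (SE, edgeR adjusted p = 0.00211) in SW948, or -0.04 and 0.40 on plain totals.

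TFE3 (GRCh37 chrX:48886237-48900936, minus strand) was at 43.7, 45.9, 43.8 and 48.5 CPM in HT55 DMSO and 47.3, 53.1, 48.8 and 51.4 in itraconazole. SW948 libraries gave 40.25, 38.6, 44.7 and 38.1 in DMSO and 71.04, 90.2, 105 and 84.8 in itraconazole. Treated SW948 libraries were all well above their controls, and the HT55 groups overlapped. The log2 fold change was 0.14 ± 0.0708 (SE, edgeR adjusted p = 0.123) in HT55 and 1.08 ± 0.104 (SE, edgeR adjusted p = 3.24e-07) in SW948, or -0.03 and 0.75 on plain totals. The activity of these factors is set largely by where the protein lies in the cell, which transcript counts do not show.

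The difference between the lines was tested directly, as the SW948 response minus the HT55 response on all 16 libraries. It passed for 27 of the 39 members, with 9 more positive in SW948 (23.1%) and 18 less positive (46.2%), beside 24.8% and 29.1% of all 13249 genes tested. On plain totals 7 were more positive and 23 less positive, beside 17.3% and 37.2% of all genes. ATP6V0E1 and TFEB then lost their calls, and CD63, CTSL, ASAH1, PPT1 and ATP6AP1 were called less positive. The widest differences were -2.14 ± 0.283 (SE, edgeR adjusted p = 4.41e-06) for ARSB, -1.76 ± 0.196 (SE, edgeR adjusted p = 6.16e-07) for SMPD1 and -1.50 ± 0.111 (SE, edgeR adjusted p = 5.77e-09) for CTSA on the log2 scale. LAMP1 differed by -0.90 ± 0.115 (SE, edgeR adjusted p = 2.76e-06) and CTSD by -1.0 ± 0.127 (SE, edgeR adjusted p = 2.68e-06). On the other side TFE3 differed by 0.97 ± 0.134 (SE, edgeR adjusted p = 6.93e-06), GLB1 by 0.75 ± 0.154 (SE, edgeR adjusted p = 0.000413) and ATP6V1A by 0.69 ± 0.097 (SE, edgeR adjusted p = 8.61e-06). TFEB differed by 0.64 ± 0.217 (SE, edgeR adjusted p = 0.0171), and on plain totals by 0.44, which did not pass (adjusted p = 0.0652).

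By role, 5 of the 7 proteases were less positive in SW948 and 0 more positive, and among glycosidases and sulfatases the numbers were 8 and 3. Over all genes tested on TMM, 29.1% were called less positive and 24.8% more positive. For IDS, NEU1 and PSAP, which rose steeply in both lines, the difference did not pass and was 0.17 ± 0.268, 0.25 ± 0.142 and 0.11 ± 0.139 (log2, SE). The call for TPP1, at -0.30, was lost in 10 of the 16 fits that leave out 1 library (adjusted p from 0.0541 to 0.0876), the exceptions being HT55 DMSO replicate 1, HT55 itraconazole replicates 3 and 4, SW948 DMSO replicate 1 and SW948 itraconazole replicates 2 and 3. It was also lost with DESeq2 size factors in edgeR (0.0674) and by the DESeq2 Wald test (0.0714). GUSB, at -0.31, lost its call without HT55 DMSO replicate 1, HT55 itraconazole replicate 2, SW948 DMSO replicates 1 and 4 or SW948 itraconazole replicate 4 (0.0504 to 0.0594), and with no filter on low counts (0.0817). ATP6V0E1, at 0.30, lost its call without HT55 itraconazole replicate 1 or SW948 itraconazole replicates 2 and 3 (0.057 to 0.0663), with no filter on low counts (0.0641), and on plain totals, where it was 0.10 (adjusted p = 0.371). The call for MCOLN1 was lost without HT55 itraconazole replicate 3 (-0.85, adjusted p = 0.058) or SW948 DMSO replicate 3 (-0.85, adjusted p = 0.0504).

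**Figure D4:**
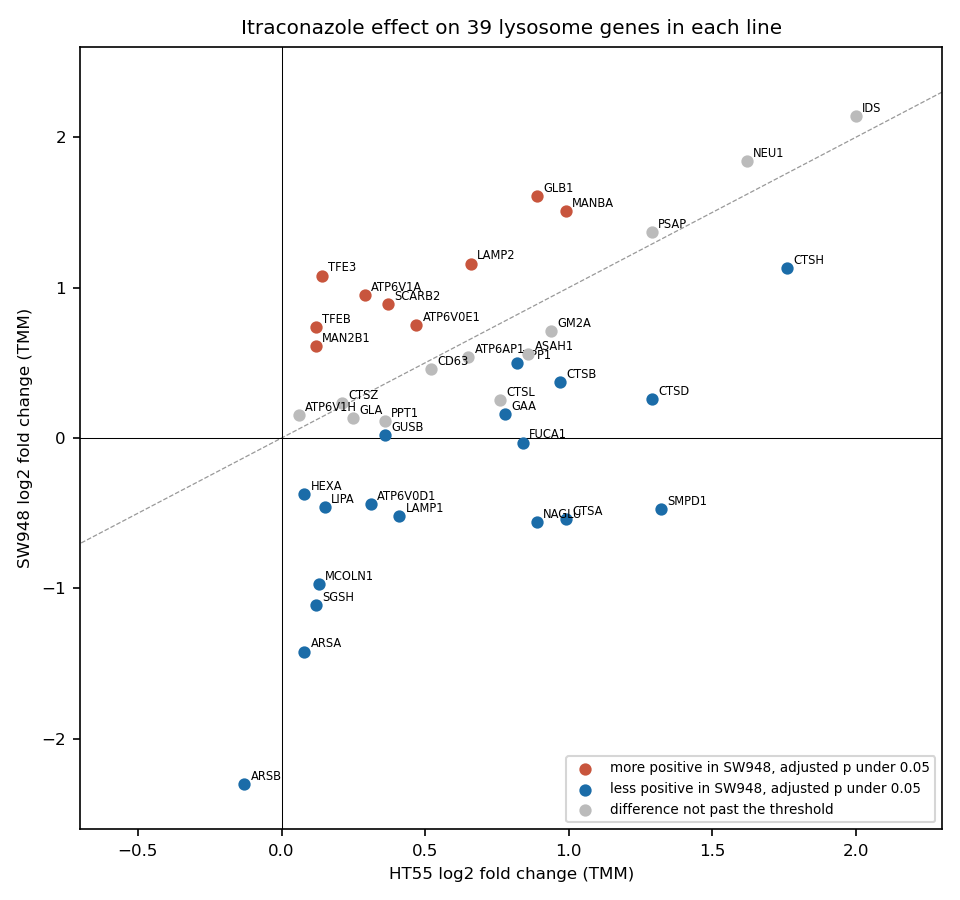
Log2 fold change of itraconazole over DMSO on TMM in HT55 (x axis) and SW948 (y axis) for the 39 members, with a dashed line where the responses are equal. Red and blue points passed the test of the difference between lines at an adjusted p under 0.05, 9 more positive and 18 less positive in SW948, and 12 grey points did not. ARSB, SMPD1 and CTSA lie furthest below the line.

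The members are set beside their promoter motifs here as a description. Among the 5 with TCACGTGA the median log2 fold change was 0.41 in HT55, with 4 higher and 0 lower, and -0.52 in SW948, with 1 higher (GAA, on TMM only) and 4 lower (LAMP1, CTSA, ATP6V0D1 and MCOLN1). The 22 members whose windows lacked it had a median of 0.58 in HT55, with 16 higher and 0 lower, and 0.48 in SW948, with 14 higher and 3 lower. On plain totals the SW948 medians were -0.86 with the palindrome and 0.14 without. Split by the core CACGTG, the 9 members with it had a median of 0.52 in HT55 and -0.44 in SW948 (4 higher, 5 lower). The 18 without the core had medians of 0.51 and 0.52 (11 higher, 2 lower in SW948). By TCACGTG the medians were 0.60 with and 0.52 without in HT55, and -0.48 and 0.50 in SW948. The difference between lines was called less positive in SW948 for all 5 with the palindrome and for 8 of the 22 without it. For the core these numbers were 7 of the 9 with it and 6 of the 18 without. Over all genes tested on TMM, 29.1% were called less positive in SW948. Of all genes 27.5% were called higher in HT55, and 38.9% higher and 41.3% lower in SW948. The numbers by motif are counts over few genes and were not tested.

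**Figure D5:**
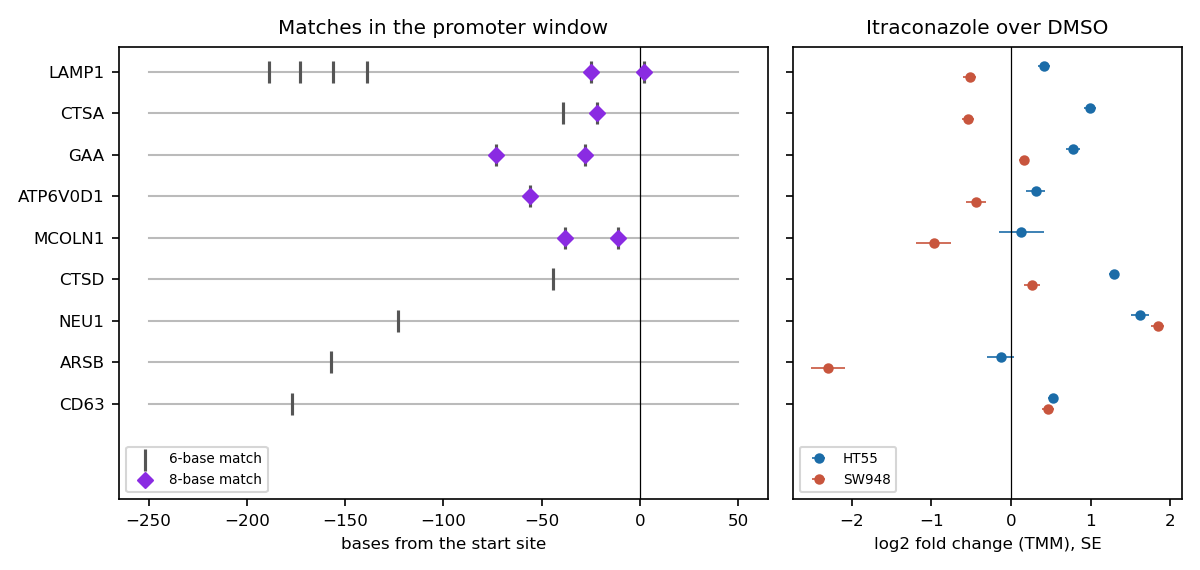
Left, positions of the 6-base core (ticks) and the 8-base palindrome (diamonds) in the windows of the 9 members that hold the core, in bases from the start site. Right, log2 fold change with standard error in HT55 (blue) and SW948 (red). LAMP1, CTSA, ATP6V0D1 and MCOLN1, all with the palindrome, lie below 0 in SW948, and GAA, also with it, lies above 0 at 0.16. Among those with the core but no palindrome, NEU1, CTSD and CD63 lie above 0 in both lines. ARSB, also without the palindrome, is lowest in SW948 at -2.3.

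In the DMSO libraries SW948 was higher than HT55 for 19 members (48.7%) and lower for 15 (38.5%) on TMM, near the 42.6% and 41.6% of all 12820 genes tested that were called. On plain totals 23 were higher and 11 lower, beside 51.0% and 33.7% of all genes. The largest gaps, as log2 of SW948 over HT55, were -2.81 for CTSZ, 2.10 for SGSH, -1.64 for ATP6AP1, 1.34 for ARSA, -1.31 for LAMP2, 1.31 for GM2A and -1.29 for TFEB. CTSZ stood at 951 ± 40.3 CPM in HT55 DMSO and 135 ± 3.83 in SW948 DMSO (SD, n = 4). These differences use the same control libraries as the treatment comparisons, so they are given as levels only. ARSB was called lower in SW948 at -0.35, and the call was lost without HT55 DMSO replicate 3 (adjusted p = 0.116) or SW948 DMSO replicate 1 (0.104), by the DESeq2 Wald test (0.0957), and on plain totals, where it was -0.15 (edgeR adjusted p = 0.305).

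The rest of the pathway was followed in a wider list of 91 other lysosome genes, of which 83 were tested in HT55 and 81 in SW948. In HT55 42 rose (50.6%) and 9 fell (10.8%), beside 27.5% and 26.5% of all genes, with a median log2 fold change of 0.30. In SW948 34 rose (42.0%) and 37 fell (45.7%), with a median of -0.10. Both SW948 shares were near the 38.9% and 41.3% over all genes. On plain totals 33 rose and 15 fell in HT55, beside 18.8% and 38.8% of all genes. The plain numbers in SW948 were 24 and 46, beside 25.2% and 54.6% of all genes.

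NPC1 and NPC2, which pass cholesterol out of the lysosome, rose in both lines. NPC1, the membrane protein of the pair, was at 45.6, 50.9, 51.3 and 47.0 CPM in SW948 DMSO and 232, 296, 323 and 255 in itraconazole. Its log2 fold change was 1.18 ± 0.0894 (SE, edgeR adjusted p = 7.62e-06) in HT55 and 2.47 ± 0.0998 (adjusted p = 1.05e-10) in SW948. NPC2, its soluble partner, rose by 1.09 in HT55 and 2.03 in SW948. Both rises were more positive in SW948, by 1.32 for NPC1 and 0.97 for NPC2 (adjusted p = 3.72e-07 and 0.000254).

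The genes of the wider list with the steepest rises in HT55 were RRAGD, a Rag GTPase of nutrient signalling at the lysosome (log2 fold change 2.06), ACP5, an acid phosphatase (2.01, from 18 counts in all 4 DMSO libraries together to 71), and CTSS, a cysteine protease of antigen processing (1.98). In SW948 they were RRAGD (4.22), CTSK, a collagen-degrading cysteine protease (2.69, from 16 counts to 79), and SLC17A5, the sialic acid exporter (2.64). RRAGD went from 2.25, 2.08, 1.74 and 1.77 CPM in SW948 DMSO to 26.7, 44.5, 44.9 and 35.1 in itraconazole.

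The steepest falls in HT55 were MCOLN3, a relative of MCOLN1 (-2.14), LAMP3, an inducible relative of LAMP1 (-1.96), and AGA, which cleaves the sugar from asparagine (-1.07). In SW948 they were SUMF1 (-3.54), ACP2, another acid phosphatase (-3.41), and LAMP3 (-2.96). LAMP3 fell from 85.1 ± 8.13 to 21.9 ± 8.05 CPM (SD, n = 4) in HT55 and from 150.6 ± 23.6 to 19.9 ± 3.23 in SW948.

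Regulators of nutrient signalling at the lysosome were also followed. Of 6 tested, 5 rose in each line on both scalings. They were FLCN and its partners FNIP1 and FNIP2, which act on the Rag GTPases, and RRAGC and RRAGD themselves. Over all genes 27.5% were called higher in HT55 and 38.9% in SW948, or 18.8% and 25.2% on plain totals. These few genes were named after their values were seen. FNIP1 rose by 0.86 in HT55 and 1.55 in SW948, RRAGC by 1.0 and 1.2, and FLCN by 0.75 and 0.87. MITF, the third factor of the family in this list, was at -0.38 in HT55 (edgeR adjusted p = 0.105) and -1.16 in SW948 (adjusted p = 0.00414), with 4 to 7 counts per treated SW948 library. On plain totals its HT55 value was -0.54 and called lower (adjusted p = 0.0401).

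Autophagy genes, kept apart from the 39, gave 18 higher (47.4%) and 7 lower (18.4%) of 38 tested in HT55, beside 27.5% and 26.5% of all genes. In SW948 20 of 37 tested were higher (54.1%) and 11 lower (29.7%), beside 38.9% and 41.3% of all genes. Their median log2 fold change was 0.17 in HT55 and 0.34 in SW948, where that of the lysosome members was 0.52 and 0.26. On plain totals 9 were higher (23.7%) and 9 lower (23.7%) in HT55, beside 18.8% and 38.8% of all genes. In SW948 14 were higher (37.8%) and 17 lower (45.9%) on plain totals, beside 25.2% and 54.6%. No difference between the autophagy and lysosome lists was tested.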

How the data were processed

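The authors deposited raw read counts per Ensembl gene for each of 16 libraries. Per the labels and the study's methods, single-end reads were aligned to hg19, and the submitters' processing notes name TopHat, HTSeq and DESeq. The gene annotation release and the strand setting of the counting are not given in the sources used here. The 5 rows of totals in each file, 28.22 to 32.92% of its reads, were left out of library sizes and tests, which used the 8269406 to 11110814 gene counts of each library.

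Each line was tested on its own 8 libraries with edgeR 4.0.16 (R 4.3.3, quasi-likelihood test, TMM, filterByExpr, Benjamini-Hochberg adjusted p under 0.05 over all genes tested). The difference between responses was fitted on all 16 libraries, and the DMSO line difference on the 8 DMSO libraries. Alternatives were plain library totals, DESeq2 size factors in edgeR, the DESeq2 1.42.0 Wald test, other filters on low counts, an adjusted p under 0.01, a replicate block, 1 fit on all libraries, and leaving out each library in turn. On simulated HT55 counts, the test recovered 94.4% of 195 genes changed by 1 on the log2 scale among 12009, with 5.2% false calls. The simulation changed few genes and gave both groups the same spread. In the HT55 data 27.5% of genes were called higher and 26.5% lower, and treated replicates differed more than controls. The simulated rates therefore cannot be carried over to the data. Every pair of replicates differed by more than sampling noise.

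The members and gene lists were chosen with earlier results of these data known. Values in every library are given for LAMP1, GLB1, TFEB and TFE3, for the 5 called members with the largest change in each line, and for the 3 with the largest difference between lines. ATP6V0D1 and MCOLN1 were added after their values were seen. Of the wider list of lysosome genes, the 3 that rose and the 3 that fell most in each line are named, with NPC1 and NPC2, and SUMF1 is shown by library beside the sulfatases. The regulators and MITF were named after their values were seen. RPKM used TMM-scaled library sizes and canonical transcript lengths of the GRCh37 annotation. Promoter windows were matched by symbol to RefSeq (GRCh38.p14) for 27 members.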

Additional observations from a re-analysis of the deposited data

Results flagged for a closer look

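In 5 of 156 groups of 4 libraries, 1 library lay far from the other 3 by Dixon's ratio, its gap to the nearest library divided by the range of the group, above the critical value of 0.829. Chance gives about 1 in 20 such groups, or 7.8 of 156. In SW948 DMSO replicate 3 stood apart for CTSH (ratio 0.842), NAGLU (0.854) and LIPA (0.862). In SW948 itraconazole replicate 4 stood apart for PPT1 (0.931) and replicate 2 for MCOLN1 (0.868).

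The response to itraconazole differed between the lines for 27 members by the edgeR interaction test. As the SW948 response minus the HT55 response on the log2 scale, the 9 positive differences were 0.53 for LAMP2, 0.55 for SCARB2, 0.75 for GLB1, 0.54 for MANBA, 0.52 for MAN2B1, 0.30 for ATP6V0E1, 0.69 for ATP6V1A, 0.64 for TFEB and 0.97 for TFE3. Among the 18 negative differences, the values were -0.90 for LAMP1, -1.50 for CTSA, -0.57 for CTSB, -1.0 for CTSD, -0.60 for CTSH, -0.30 for TPP1, -0.59 for GAA, -0.42 for HEXA and -1.43 for NAGLU. The others were -1.47 for ARSA, -2.14 for ARSB, -0.31 for GUSB, -0.85 for FUCA1, -1.20 for SGSH, -1.76 for SMPD1, -0.59 for LIPA, -0.71 for ATP6V0D1 and -1.07 for MCOLN1.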

How the results depend on the processing

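No count of members higher or lower moved by more than 1.5 times under any alternative, for either line, for the difference between lines or for the DMSO line difference. On plain library totals the median log2 fold change of the members was 0.35 in HT55 and -0.08 in SW948. Values that changed sign on plain totals in HT55 were HEXA -0.09, ARSA -0.08, MAN2B1 -0.04, SGSH -0.04, LIPA -0.0049, ATP6V1H -0.11, MCOLN1 -0.03, TFEB -0.04 and TFE3 -0.03. In SW948 they were CTSD -0.08, CTSL -0.08, CTSZ -0.11, GAA -0.17, GLA -0.20, GUSB -0.31, PPT1 -0.21 and ATP6V1H -0.19. For the difference between lines they were CTSZ -0.16, IDS -0.01, PSAP -0.08 and ATP6V1H -0.08, and for the DMSO line difference LAMP1 0.05, SCARB2 0.08, NAGLU 0.17, ATP6V1A 0.17 and TFE3 0.03. These shifts follow from the scaling itself.

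GUSB in SW948 was -0.0014 with no filter and -0.02 with at least 10 counts in every library, and FUCA1 in SW948 was 0.0021 in 1 fit on 16 libraries. With at least 10 counts in every library the DMSO line difference was 0.00081 for NAGLU and 0.01 for ATP6V1A, and ARSB had no value in SW948. The cause of these changes was not tested. Leaving out 1 library changed the sign of values near 0, with ranges of -0.01 to 0.12 for ATP6V1H, -0.08 to 0.32 for MCOLN1 and -0.01 to 0.24 for SGSH in HT55, and -0.07 to 0.01 for FUCA1 and -0.01 to 0.06 for GUSB in SW948. For the difference between lines the ranges were -0.07 to 0.02 for CD63, -0.04 to 0.12 for CTSZ, -0.35 to 0.02 for GM2A, -0.05 to 0.33 for IDS and -0.01 to 0.22 for PSAP. For the DMSO line difference they were -0.05 to 0.01 for ATP6V1A and -0.13 to 0.03 for NAGLU.

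Deviations of same-numbered control and treated libraries correlated at -0.025 to 0.115 in HT55 and -0.004 to 0.107 in SW948. Libraries with different numbers gave -0.106 to 0.05 in HT55 and -0.119 to 0.045 in SW948. The pair numbered 3 was the highest in each line. What same-numbered libraries share is not stated, and such small correlations cannot decide it. With the replicate block 26 members were called in HT55, where CTSZ (adjusted p = 0.0504) and ATP6V0D1 (0.0566) lost their calls, 33 in SW948, 26 for the difference between lines, where GUSB lost its call (0.0524), and 35 for the DMSO line difference, where IDS gained one (0.0274). Depth limits ARSB and MCOLN1 most, the members with the fewest counts under SW948 itraconazole.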
